A study of Homo sapiens with 2 samples.

Results

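Actin filaments, the proteins that shape them and the transcription factor SRF were followed in a human liver cancer line through 10 genes. ACTB and ACTG1 encode the cytoplasmic β- and γ-actins, SRF encodes the serum response factor, and ACTN1, MYL9, TAGLN, TPM1, VCL, FLNA and CFL1 encode proteins that bundle, pull on, coat, anchor, cross-link or sever actin filaments. The genes were listed by symbol and matched by their Entrez identifiers, and all 10 were found among the 27685 genes of both libraries. PLC/PRF/5, an established hepatocellular carcinoma line, was treated for 24 h with DMSO, the solvent, or with 6 µM JIB-04, a small-molecule inhibitor of Jumonji histone demethylases. Each condition had 1 library of polyadenylated RNA, so no comparison has a replicate check and no p-value is given. One label calls the control cells untreated, whereas the title of that library and the methods name DMSO. The labels name no genetic alteration made to the cells. The comparison asks how the levels of actin and of its regulators differed between JIB-04-treated and control cells.

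Actin exists as free monomers and as filaments, and cells move between these states with nucleators, monomer-binding proteins and severing proteins. SRF binds DNA at the CArG box and works with cofactors of the myocardin-related (MRTF) and ternary complex (ELK) families. Monomeric actin binds MRTF proteins and keeps them from SRF, and when small GTPase signalling draws monomers into filaments the MRTF proteins enter the nucleus and SRF target genes are transcribed. Many genes of the actin cytoskeleton, including actin genes and SRF itself, are SRF targets in this circuit. In liver these genes are best known from stellate cells and myofibroblasts, whereas hepatocytes and hepatoma cells express mainly the cytoplasmic actins.

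The CArG boxes near the start sites are shown first because they are the letters that SRF is known to bind. RefSeq promoters of GRCh38.p14, from 250 bases before the start of transcription to 50 after it, were searched on both strands for the 10-base CArG box. No other motif was searched. The expression values are on hg19, and no position was carried from one build to the other. Of the 7 genes with an entry, namely ACTG1, ACTN1, SRF, TPM1, VCL, FLNA and CFL1, a CArG box was found in 4. In the lines below the box is in capitals, with up to 10 bases on either side, 5′ to 3′ on the strand of the gene. The second SRF line stops at the last base before the start of transcription, so no bases follow its box. 
SRF, chr6:43171229-43171258, plus strand: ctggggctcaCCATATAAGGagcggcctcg
SRF, chr6:43171249-43171268, plus strand: agcggcctcgCCATAAAAGG
ACTG1, chr17:81512874-81512903, minus strand: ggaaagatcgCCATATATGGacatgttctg
FLNA, chrX:154374709-154374738, minus strand: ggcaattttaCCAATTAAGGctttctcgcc
ACTN1, chr14:68977718-68977747, minus strand: acgctcatgtCCAAAAATGGtaacattcat

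Both SRF boxes lay directly before the start site, at 30 to 21 and 10 to 1 bases upstream, and their windows share 10 bases. The boxes of ACTG1 and FLNA were both 94 to 85 bases upstream. The ACTN1 box lay 171 to 162 bases upstream in 1 of the 4 promoters that the table holds for this gene. TPM1, VCL and CFL1 had no such letters in this window. A CArG box was held by 407 of all 35116 promoters searched (1.16%). Counted by gene, as for the 7 genes above, it was held by 394 of 27305 (1.44%). A match is a description of the sequence and says nothing of binding in these cells.

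Levels are given as TPM, the share of a gene among 1000000 transcripts after correction for length, summed over its annotated transcripts. Ratios are on the log2 scale, treated over control, after 1 was added to each TPM. The 95% interval of a ratio is computed from estimated fragments and covers counting error only. In all, 14450 genes with at least 1 TPM in either library are described, and all 10 genes passed this filter. The estimated depth was 28187793 fragments in the control library and 23721989 in the treated library. The median log2 ratio of all described genes was -0.15, and their interquartile range was -0.51 to 0.25, so a gene at 0 in TPM lay above the typical gene.

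All 10 genes had a lower TPM with JIB-04, but none reached a 2-fold difference in either direction, which 5.99% of all described genes reached upward and 6.88% downward. Their log2 ratios ran from -0.55 for ACTB to -0.02 for ACTN1, with a median of -0.20 beside -0.15 for all genes. A ratio below 0 was found for 60.3% of all described genes. Against the median of all genes, 6 of the 10 lay lower and 4 higher. The counting interval lay wholly below that median for ACTB, TAGLN, MYL9, SRF and ACTG1, wholly above it for ACTN1, VCL and CFL1, and held it for FLNA and TPM1. ACTB was the only one of the 10 outside the interquartile range of all genes. Of the 10 genes, 9 had a mean of at least 100 TPM, and the 1910 genes at that level had a higher median log2 ratio, -0.079, with an interquartile range of -0.39 to 0.28. Against that median 9 of the 10 lay lower and 1, ACTN1, higher. The intervals of 8, now with FLNA, TPM1 and CFL1, lay wholly below it, and that of VCL held it. Together the 10 genes held 1.55% of all TPM with DMSO and 1.21% with JIB-04. Because the RNA came from whole cultures, fewer cells with a transcript and less transcript per cell cannot be told apart.

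**Figure D1:**
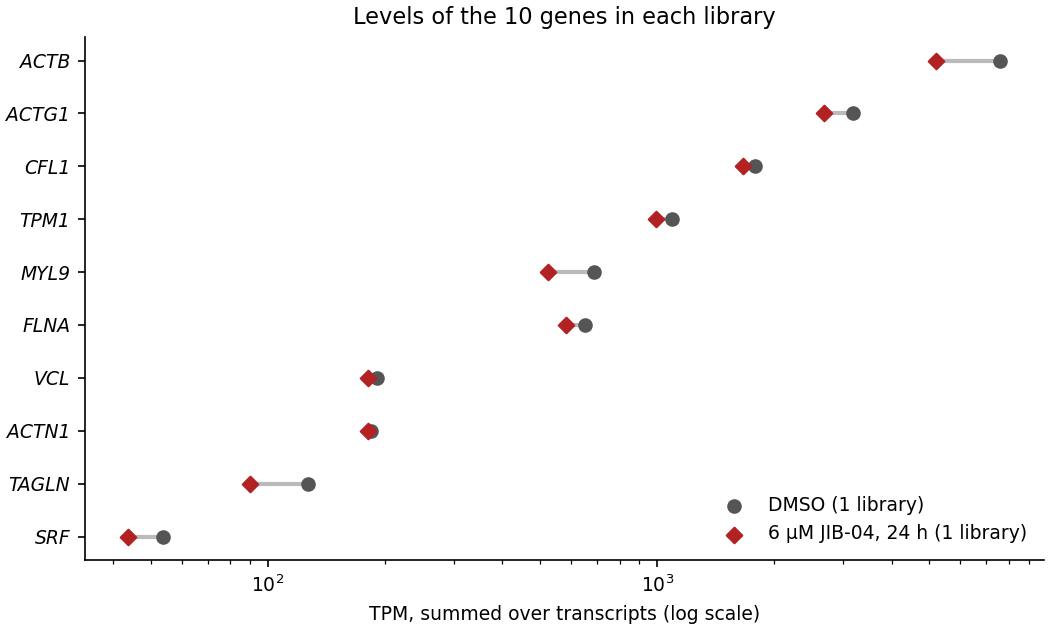
Level of each gene in TPM (log scale) in the DMSO library (circles) and the JIB-04 library (diamonds), ordered by the DMSO level. The levels span from 53.8 TPM for SRF to 7598 TPM for ACTB with DMSO, and each diamond lies at or left of its circle.

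**Figure D2:**
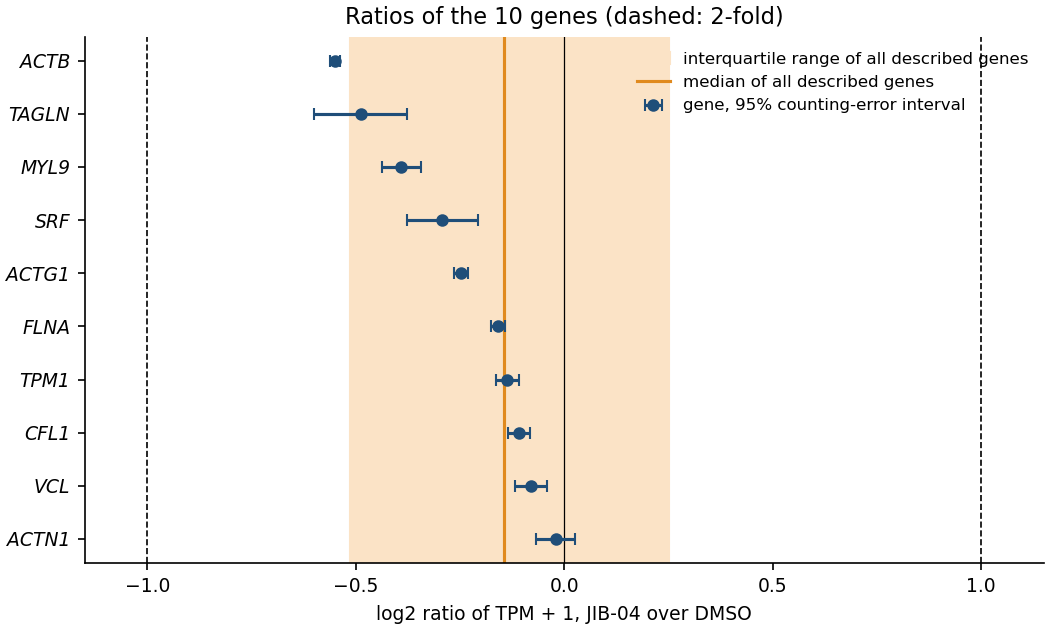
Log2 ratio of TPM + 1, JIB-04 over DMSO, with 95% counting-error intervals for the 10 genes, against the median (line) and the interquartile range (band) of the 14450 described genes. ACTB, at -0.55, lies left of the band, and no gene reaches the dashed lines at 2-fold.

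The actins came first in level. ACTB (chr7:5566779-5570232, minus strand, Entrez 60), the β-actin, measured 7598 TPM in control cells and 5191 TPM in treated cells. The log2 ratio was -0.55 (interval -0.56 to -0.54), and its rank among all genes by TPM went from 3 to 7. ACTG1 (chr17:79476997-79479892, minus strand, Entrez 71), the γ-actin, measured 3178 and 2676 TPM, with a ratio of -0.25 (-0.26 to -0.23), with a rank of 17 and 25. The lower actin level was thus mostly a lower ACTB level. The quotient of ACTB to ACTG1 was 2.39 with DMSO and 1.94 with JIB-04.

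Summed over the 6 actin isoforms, actin measured 10776 TPM in control and 7868 TPM in treated cells, with a log2 ratio of -0.45 (-0.46 to -0.44). ACTB made up 70.5% and 66.0% of this sum, and ACTG1 29.5% and 34.0%. The muscle actins ACTA1, ACTA2, ACTC1 and ACTG2 were all under 1 TPM in both libraries and together held 0.0045% and 0.0048%. ACTB and ACTG1 have processed pseudogenes, 10 and 20 in the GENCODE annotation, and reads shared with these or between the 2 actins could be split differently, so both values carry that uncertainty. Of 6 actin-like paralogs POTEE and POTEF reached 1 TPM in a library, POTEI and POTEM were under 1 TPM, and ACTBL2 and POTEJ were listed at 0 in both. POTEE was at 2.37 and 1.20 TPM and POTEF at 1.92 and 0.66 TPM, with DMSO and JIB-04 respectively. ACTB itself is widely used as a reference transcript in expression assays, as is GAPDH, and the quotient of ACTB to GAPDH was 0.953 with DMSO and 0.258 with JIB-04, while GAPDH was at 7975 and 20149 TPM.

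The 3 other genes whose intervals lay below the median of all genes were TAGLN, MYL9 and SRF. TAGLN (chr11:117070040-117075508, plus strand, Entrez 6876) encodes transgelin, or SM22α, a calponin-family protein that coats filaments and is a classical SRF target of smooth muscle. It measured 127 TPM in control and 90.0 TPM in treated cells, with a log2 ratio of -0.49 (-0.60 to -0.38). Its relative TAGLN2, the transgelin of nonmuscle cells, was the more abundant and moved the opposite way, from 1382 to 2299 TPM (log2 ratio 0.73), so that the quotient of TAGLN to TAGLN2 was 0.0916 and 0.0391. MYL9 (chr20:35169887-35178226, plus strand, Entrez 10398) encodes a regulatory light chain of myosin II, the motor that pulls on actin filaments. It measured 687 and 524 TPM, with a ratio of -0.39 (-0.44 to -0.34). The other regulatory light chain genes differed from each other: MYL12A was lower, at 832 and 558 TPM (-0.58), and MYL12B was higher, at 1885 and 2176 TPM (0.21). MYL9 thus held a larger level relative to MYL12A with JIB-04 (quotient 0.826 and 0.939) and a smaller one relative to MYL12B (0.365 and 0.241).

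The filament-binding and adhesion genes lay near the median of all genes. FLNA (chrX:153576900-153603006, minus strand, Entrez 2316), the filamin that cross-links filaments at the cortex, was at 652 and 584 TPM with a log2 ratio of -0.16 (-0.18 to -0.14). TPM1 (chr15:63334838-63364113, plus strand, Entrez 7168), a tropomyosin that lies along the filament and gates access of myosin and cofilin, was at 1093 and 994 TPM (-0.14, interval -0.16 to -0.11). CFL1 (chr11:65622285-65625804, minus strand, Entrez 1072), the cofilin that severs filaments, was at 1786 and 1656 TPM (-0.11, -0.14 to -0.08). GENCODE lists 8 CFL1 pseudogenes, so that value carries the same uncertainty as the actins. VCL (chr10:75757872-75879914, plus strand, Entrez 7414), vinculin, which ties filaments to focal adhesions, was at 191 and 180 TPM (-0.08, -0.12 to -0.04). ACTN1 (chr14:69340840-69446083, minus strand, Entrez 87), an α-actinin that bundles filaments, was at 184 and 181 TPM (-0.02, -0.07 to 0.03), the only one of the 10 whose interval held 0.

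The partners of these genes gave different balances. The transcript levels of the cofilin gene CFL1 and of most monomer-binding genes were higher relative to those of actin. CFL2, another cofilin gene, was nearer to actin, with a log2 ratio of -0.38 beside -0.45 for the summed actins. The monomer-binding gene CAP2 was also nearer, at -0.36. In TPM neither CFL1 nor PFN1 was itself higher, but a quotient does not tell which side moved. With the median of genes with at least 10 TPM in both libraries set to 0, CFL1 was at 0.04 and summed actin at -0.30. The quotient to the summed actins went from 0.166 to 0.210 for CFL1, from 0.195 to 0.266 for PFN1, which delivers monomers to growing ends, and from 0.508 to 0.751 for TMSB4X, which sequesters monomers. For TMSB10, a further thymosin, it went from 0.385 to 1.29, where TMSB10 itself measured 4151 TPM in control and 10116 TPM in treated cells. The quotients of ACTN1 to ACTN4 (0.473 and 0.487) and of TPM1 to TPM2 (0.796 and 0.792) hardly differed, and that of VCL to TLN1, the talin that recruits vinculin, was 0.711 and 0.611. These quotients are values of 2 libraries and have no error from replicates.

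SRF (chr6:43139033-43149244, plus strand, Entrez 6722) was the least abundant of the 10, at 53.8 TPM in control and 43.8 TPM in treated cells, with a log2 ratio of -0.29 (-0.38 to -0.21). This gene value joined exons that went in opposite directions, which was seen when the exon coverage was examined. Exon coverage was scaled by the factor that turns coverage into TPM in each library. The 5 internal exons of SRF had a coverage of 105 with DMSO and 65.5 with JIB-04, a log2 ratio of -0.67 (-0.81 to -0.53). The last exon, which makes up 57.4% of the bases of NM_003131, had 35.4 and 39.1, a log2 ratio of 0.14 (0.01 to 0.27). In GENCODE the corresponding last exon of SRF has 93 coding bases and 2320 bases that are not coding, so it is mostly 3′ untranslated region. Every exon of SRF before the last was lower with JIB-04, with log2 ratios from -1.03 to -0.55 for those in all transcripts.

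The coverage of the last exon relative to the internal exons of SRF was thus 0.337 with DMSO and 0.596 with JIB-04, a log2 change of 0.82. Among the 6693 genes for which the same measure could be taken this change was at percentile 98.0, and 90% of those genes lay between -0.92 and 0.37, with a median of -0.095. For the other 9 genes it ran from -0.24 for ACTN1 to 0.16 for TAGLN. Over internal exons alone SRF stood lowest of the 10, below TAGLN (-0.57, interval -0.74 to -0.41) and ACTB (-0.55, -0.56 to -0.53). The interval of SRF, -0.81 to -0.53, overlapped theirs, so this order is not resolved by the counts. Over whole genes ACTB and TAGLN were lowest. The cause of the difference between the exons of SRF was not tested.

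**Figure D3:**
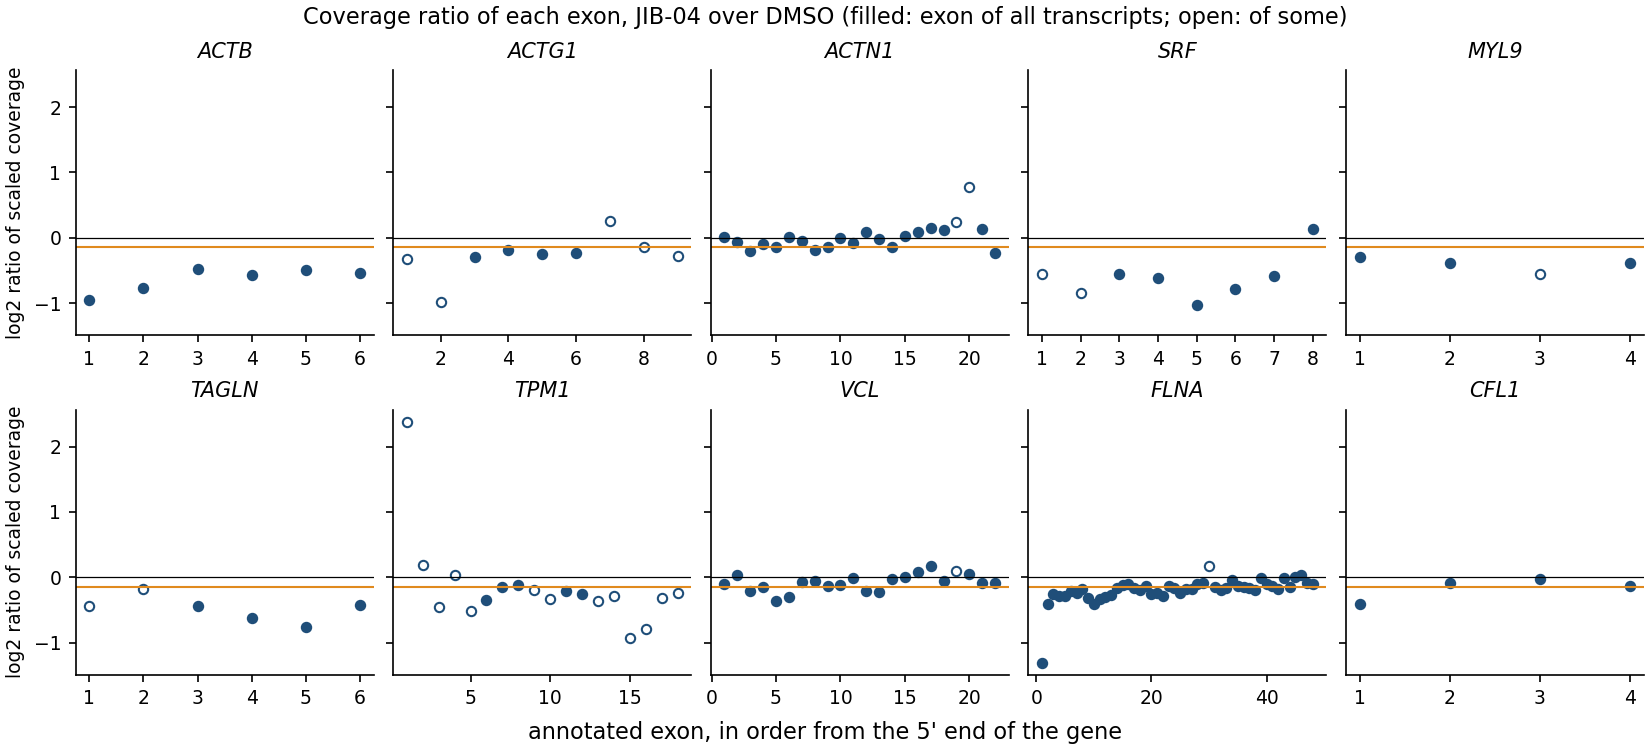
Log2 ratio of scaled coverage + 1, JIB-04 over DMSO, for each annotated exon in order from the 5′ end, with filled points for exons of all transcripts of a gene and open points for the others. The upper line marks 0 and the lower line the median of all genes, -0.15. The last exon of SRF stands at 0.14 while its internal exons stand between -1.03 and -0.55, and the first exon of TPM1 stands at 2.38.

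Along the other genes the exons mostly moved together. Among exons in all transcripts, log2 ratios ran from -0.30 to -0.18 in ACTG1, from -0.38 to -0.29 in MYL9, from -0.76 to -0.41 in TAGLN, from -0.23 to 0.16 in ACTN1 and from -0.36 to 0.18 in VCL. In ACTB the first and second exons, at -0.95 and -0.76, were lower than the next 4, at -0.57 to -0.48. In CFL1 the first exon was at -0.41 and the other 3 were between -0.13 and -0.02. The first exon of FLNA was at -1.30 and its other shared exons reached up to 0.03. In each of these 3 genes the first exon was covered less than the next one. For FLNA the scaled coverage was 24.7 and 9.45 over the first exon against 262 and 197 over the second.

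Transcript choice was next examined, since several of these genes make tissue-specific isoforms. The estimates assigned 1 TPM1 transcript, NM_001018006, 385 TPM in control and 837 TPM in treated cells, so its share of TPM1 went from 35.2% to 84.2%. Every other TPM1 transcript with at least 5% in a library lost share: NM_001018004 went from 21.2% to 2.42%, NM_001018020 from 12% to 4.0%, NM_001301289 from 10.1% to 2.17%, NM_001330351 from 9.81% to 3.53% and NM_001018007 from 6.50% to 2.28%. This was a move of 49.0 percentage points, at percentile 97.8 of 6268 genes with several transcripts and a mean TPM of at least 10, whose median largest move was 7.01 points.

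Of the exons that tell these transcripts apart, the first exons moved in the same direction as the transcript shares and the alternative internal and last exons moved far less. The 305-base first exon, used by NM_001018006 and 6 other transcripts, had 71.7% (66.6% to 76.6%) of the coverage of its pair with the 271-base first exon of NM_001301289 with DMSO and 95.1% (93.6% to 96.3%) with JIB-04. NM_001018006 and NM_001018004 share all exons but 1, a 76-base exon, and the downstream form of this exon, used by NM_001018004, had 7.19% (5.90% to 8.60%) of the coverage of the pair with DMSO and 6.57% (5.18% to 8.26%) with JIB-04. The upstream 126-base exon of NM_001018020 and NM_001018007 had 6.11% (5.07% to 7.28%) and 9.26% (7.67% to 11.1%) of its pair. The 198-base last exon, which marks forms with another 3′ end, had 3.31% (2.66% to 4.05%) and 2.03% (1.45% to 2.79%) beside the 825-base last exon. The intervals are exact binomial intervals of estimated fragments, taken as coverage times exon length over 202 bases. For exons shorter than this the estimate counts fewer fragments than cross the exon. Their intervals, here and for the other genes below, are thus wider than counting error, and an overlap of them settles nothing. Among the 4 transcripts that begin with the 305-base exon and end with the 825-base exon the transcript shares and the exon shares thus gave different pictures, and the summed TPM1 level does not depend on the split. Within the first-exon pair the 305-base exon itself had a scaled coverage of 72.6 with DMSO and 381 with JIB-04, a log2 ratio of 2.38 (2.19 to 2.57), while the 126-base exon most used after it was at -0.45. The cause was not tested. TPM1 also shares exon bases with a gene on the opposite strand, and the abundances were estimated with a strand setting.

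**Figure D4:**
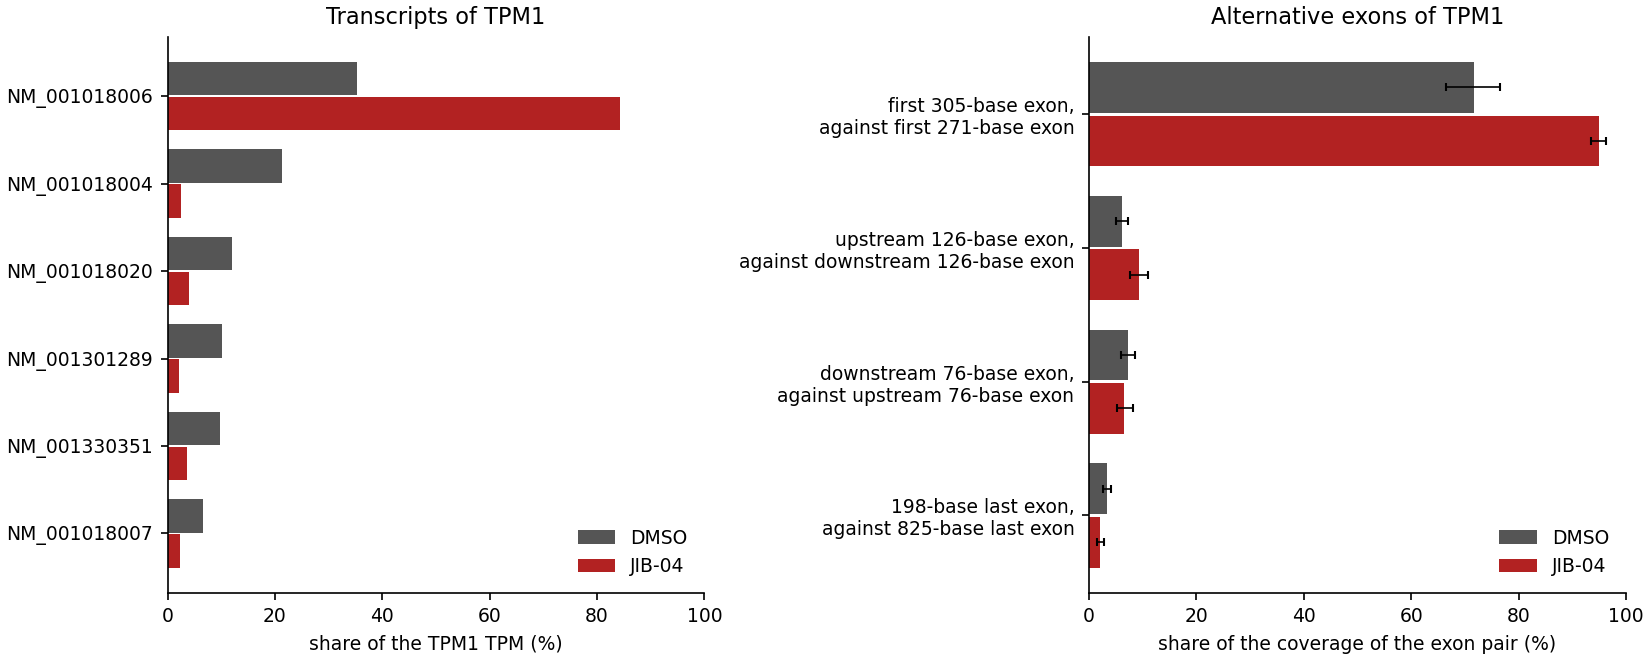
Left, share of the TPM1 TPM (%) held by each transcript with at least 5% in a library. Right, share of coverage (%) of the alternative exons that separate these transcripts, with 95% exact binomial intervals. NM_001018006 goes from 35.2% to 84.2% on the left, and on the right the share of the 305-base first exon goes from 71.7% to 95.1%, whereas the shares of the other alternative exons move by at most 3.14 points.

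In the other genes transcript shares moved little, by at most 7.16 points, in ACTN1, where NM_001130004 went from 7.16% to 0%. ACTB and CFL1 have 1 annotated transcript each. The 66-base exon of ACTN1 had 4.52% (1.89% to 8.34%) and 6.70% (3.40% to 11.1%) of its pair with an 81-base exon, with overlapping intervals. For FLNA, NM_001110556 holds a 24-base exon that NM_001456 lacks, and its share went from 52.5% to 45.4% while the coverage of that exon relative to its neighbours went the other way, from 42.6% (36.1% to 49.4%) to 51.9% (44.0% to 59.4%). For MYL9, the 162-base exon that only the longer transcript holds had 72.3% (70.0% to 74.5%) of the coverage of its neighbours with DMSO and 64.0% (61.0% to 67.0%) with JIB-04, and the share of that transcript was 90.6% and 87.4%. The 204-base exon of the longer VCL transcript, the metavinculin form of muscle, was at 11.7% (8.80% to 15.1%) and 12.6% (9.18% to 16.3%) of its neighbours.

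The rest of the SRF circuit was described by gene lists. Of SRF and 7 cofactors 7 genes were described, none past 2-fold, with a median log2 ratio of -0.29. MRTFA, the actin-sensing coactivator, was higher (37.9 and 47.4 TPM, log2 ratio 0.32), its relative MRTFB was lower (14.2 and 11.2 TPM, -0.31), and the quotient of SRF to MRTFA went from 1.42 to 0.923. The ternary complex factors were at -0.29 for ELK1, 0.04 for ELK3 and -0.06 for ELK4. SCAI, a repressor of MRTF activity, was at 1.64 and 1.00 TPM (-0.40). MYOCD, the myocardin of smooth and cardiac muscle, was under 1 TPM in both libraries.

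Of 14 genes of the small GTPase input to SRF 12 were described, with a median of 0.16 and 1 past 2-fold. This was RHOB, an inducible small GTPase, at 117 and 331 TPM (1.49). ARHGEF2, a GTPase activator, was at 47.4 and 72.9 TPM (0.61), and the lowest were the formin DIAPH3 at 41.3 and 23.2 TPM (-0.81) and ARHGEF12, another activator, at 79.0 and 51.2 TPM (-0.62).

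Of 28 further cytoskeletal genes known as SRF targets 24 were described, with a median of 0.14, beside -0.20 for the 10 genes. Past 2-fold were ITGA5, an integrin subunit that binds fibronectin, at 306 and 987 TPM (1.69), and VIL1, the bundling protein of microvilli, at 160 and 36.3 TPM (-2.11). LPP, an adhesion protein, was next at 3.42 and 7.80 TPM (0.99), and CCN2, a matricellular growth factor, was at 216 and 117 TPM (-0.88). The immediate early targets, which SRF drives mainly with ternary complex factors, had a median of 0.14 over 10 of 12 genes. Of these ATF3 (31.6 and 144 TPM, 2.15), DUSP5 (78.2 and 201 TPM, 1.35) and FOSB (14.3 and 33.4 TPM, 1.18) were past 2-fold, whereas IER3 (354 and 225 TPM, -0.65) and EGR1 (112 and 78.9 TPM, -0.50) were lowest. Both kinds of target held genes on either side of 0.

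Described genes whose promoter held a CArG box numbered 165 and had a median log2 ratio of -0.05, with 10 higher and 8 lower by 2-fold. The 10936 described genes of the promoter table without one had a median of -0.16, with 591 higher and 710 lower. Of the 4 box-bearing genes among the 10, SRF and ACTG1 lay below the median of all genes, FLNA lay at -0.16 and ACTN1 above it.

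The remaining lists cover the structures in which the 10 genes work. The other tropomyosins were close to TPM1, with TPM2 at 1373 and 1255 TPM (-0.13), TPM4 at 1050 and 966 TPM (-0.12) and TPM3 at 380 and 411 TPM (0.12). Of the α-actinin, filamin and calponin-family paralogs 8 of 10 were described, with a median of 0.36 including ACTN1, FLNA and TAGLN. ACTN3 alone was past 2-fold, at 0.92 and 3.51 TPM (1.23), and FLNC was at 6.68 and 12.5 TPM (0.81), while ACTN4 was at 388 and 372 TPM (-0.06). ACTN2 and TAGLN3 were under 1 TPM in both libraries.

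The 17 focal adhesion genes, with VCL among them, had a median of 0.20. Past 2-fold were TNS1, a tensin, at 1.01 and 6.60 TPM (1.92, under the mean of 5 TPM), and TES, testin, at 73.8 and 177 TPM (1.25). Next was BCAR1, an adhesion scaffold, at 55.8 and 69.8 TPM (0.32), and the lowest were TLN2 at 12.8 and 8.55 TPM (-0.53) and TNS3 at 93.6 and 65.4 TPM (-0.51). The 19 genes of cofilin and filament turnover had a median of 0.08. CORO1C, a coronin that guides filament disassembly, was at 84.1 and 320 TPM (1.91), and PDXP, a phosphatase that activates cofilin, was at 26.5 and 71.8 TPM (1.41). The lowest were SSH3, a slingshot phosphatase, at 102 and 58.1 TPM (-0.80) and DSTN, destrin, at 468 and 341 TPM (-0.45).

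The 6 monomer-binding genes had a median of 0.02, with TMSB10 past 2-fold (1.28). PFN1 was at 2101 and 2095 TPM, PFN2 at 135 and 136 TPM, TMSB4X at 5477 and 5908 TPM, CAP1 at 385 and 392 TPM and CAP2 at 51.7 and 40.0 TPM. Relative to the summed actins PFN2 was at 0.0125 and 0.0173, CAP1 at 0.0357 and 0.0498, and CAP2 at 0.00479 and 0.00508. The 15 genes of Arp2/3 and nucleation had a median of -0.03 with none past 2-fold, from WASF1 (-0.49) and ARPC5 (-0.47) to WASF2 (0.59) and ARPC2 (0.60). The 11 genes of nonmuscle myosin II, with MYL9 among them, had a median of -0.05 with none past 2-fold, from MYLK, the myosin light chain kinase (-0.71), and MYL12A (-0.58) to PPP1CB, a catalytic subunit of its phosphatase (0.28), and MYH10 (0.30). The counts and medians of all these lists describe the 2 libraries and were not tested against other genes.

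**Figure D5:**
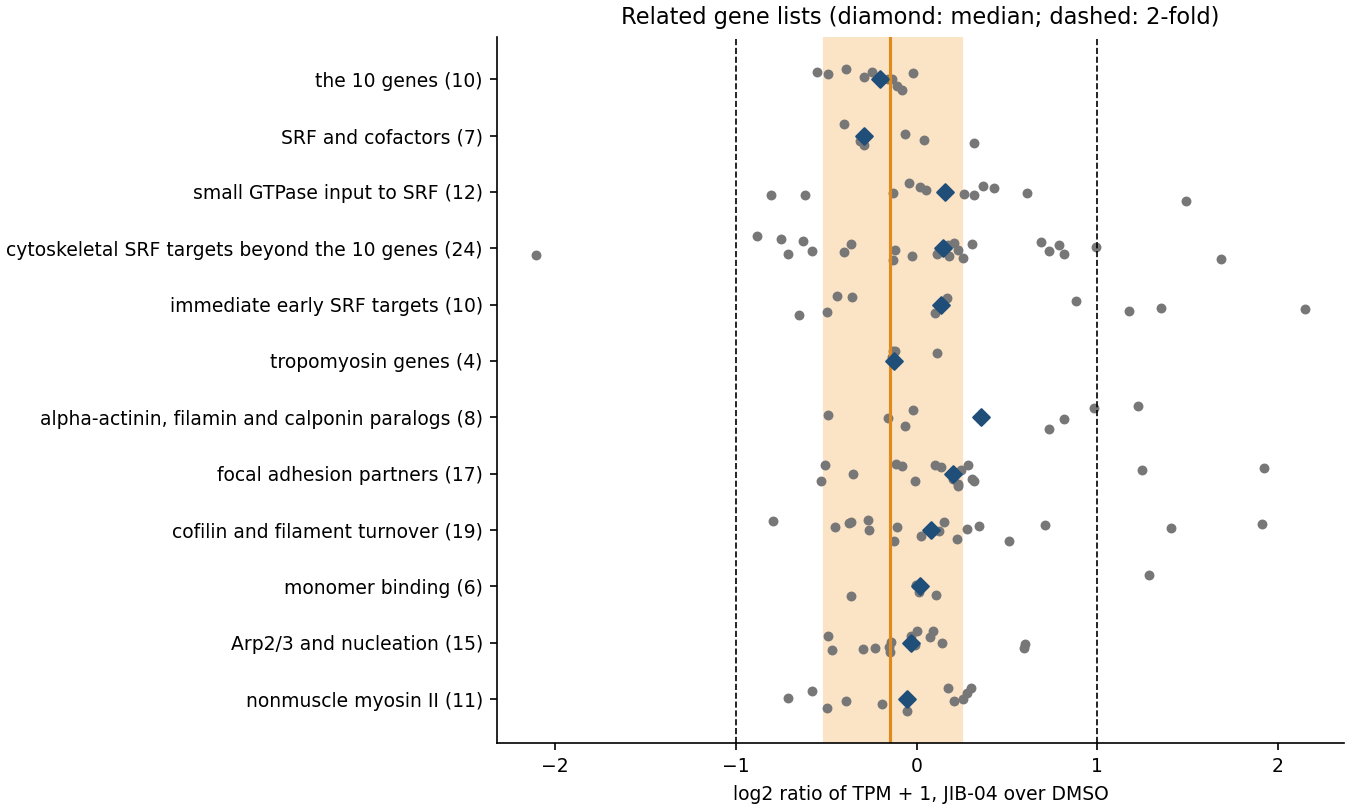
Log2 ratio of TPM + 1, JIB-04 over DMSO, for each described gene (point) of the lists related to the 10 genes, with the list median (diamond), the median of all genes (line) and their interquartile range (band). The number after each name counts the genes described. The 10 genes sit between -0.55 and -0.02, and points past the dashed 2-fold lines in the other lists include RHOB, ITGA5, VIL1, ATF3, CORO1C and TMSB10.

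The label of the line was compared with marker genes. FGB (771 and 961 TPM), AFP (131 and 151 TPM), SERPINA1 (284 and 209 TPM) and HNF4A (71.9 and 72.3 TPM) were present, whereas ALB was at 9.74 and 4.53 TPM and APOA1 at 1.34 and 0.99 TPM. The list of 12 hepatocyte and hepatoma markers had a median of -0.34 and 2 genes past 2-fold, both lower: APOB, at 103 and 32.9 TPM (-1.62), and KRT18, at 4484 and 2214 TPM (-1.02). Of 13 markers of smooth muscle and fibroblasts, cells in which TAGLN and MYL9 are also expressed, 9 with DMSO and 10 with JIB-04 were under 1 TPM. The summed level of the 13 was 69.5 TPM in control and 47.1 TPM in treated cells, and ACTA2, MYH11 and CNN1, which define smooth muscle, were at 0.05, 0.01 and 0.54 TPM in control and at 0.00, 0.01 and 0.23 TPM in treated cells. SMTN (46.5 and 31.7 TPM) and COL1A1 (16.0 and 10.6 TPM) made up most of that sum, and the median log2 ratio of the 4 described was -0.54. Of 6 epithelial genes 5 were described, with a median of -0.39, among them KRT8 (3212 and 1912 TPM, -0.75), KRT7 (24.97 and 25.64 TPM), CDH1 (61.2 and 73.3 TPM) and EPCAM (2.39 and 1.58 TPM), and KRT19 was under 1 TPM. Of 8 leukocyte and endothelial markers LYZ (57.3 and 41.9 TPM) and CD14 (6.05 and 1.37 TPM, past 2-fold) reached 1 TPM, PTPRC and CDH5 were listed at 0 in both libraries, and CD3E, PECAM1 and VWF were under 1 TPM. Beside the 10 genes, 13 genes often used as references had a median of 0.07, with PGK1 (2.14) and GAPDH (1.34) past 2-fold upward and SDHA at -0.29. The part of the cell type markers in the levels of the 10 genes was not tested.

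How far the 10 genes lay below 0 depended on the scale. When the median of genes with at least 10 TPM in both libraries was set to 0, only 6 of the 10 were below 0, and the split of all described genes past 2-fold turned from 865 higher and 994 lower to 1108 higher and 679 lower. ACTB, TAGLN, MYL9 and SRF stayed below 0 under every alternative tried, at -0.28, -0.22, -0.12 and -0.03 or lower. The -0.03 of SRF, with reference genes, lay closer to 0 than its counting interval reaches to either side. ACTG1, FLNA, TPM1, CFL1, VCL and ACTN1 changed sign under at least 1.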

How the data were processed

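RNA of 1 DMSO-treated and 1 JIB-04-treated PLC/PRF/5 culture was sequenced as stranded mRNA libraries. According to the submitters' processing notes, transcripts were estimated with StringTie 1.3.3b, on hg19. HISAT2 2.0.5 and Bowtie2 2.2.6 are listed too, with FastQC 0.11.5 and Trimmomatic 0.32. The authors deposited coverage per base, FPKM and TPM of 63714 annotated RefSeq transcripts, with coverage also per exon. Read counts were not used here, so depth was estimated.

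Gene TPM was the sum over transcripts. Symbols came from a RefSeq table, used for names only (27559 of 27685 IDs). Genes with at least 1 TPM in either library were described, with a pseudocount of 1 and a threshold of 2-fold. Fragments were coverage times length over 202 bases, and intervals (95%) are exact conditional binomial intervals that cover counting error only. Deeper genes have narrower intervals, and those of single short exons are wider than counting error. The 10 genes, the 18 other lists and the alternatives were chosen with earlier results of these data known, and the exon measures after values were seen. Named genes are the 10 genes, all genes of lists of up to 8, and of longer lists the 2 highest and 2 lowest with a mean of at least 5 TPM and those past 2-fold where at most 5. Marker genes, quotients and a few further paralogs were named besides, after their values were seen. Transcripts with at least 5% of a gene were named. A few list genes are left unreported. The computation was tested on simulated data. Python 3.11.15, numpy 2.4.6, pandas 2.3.3, SciPy 1.17.1 and matplotlib 3.10.9 were used.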

Additional observations from a re-analysis of the deposited data

How the results depend on the processing

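No paired analysis was possible because each condition had 1 library, and no replicate could be left out. The number of the 10 genes past 2-fold stayed 0 in both directions under all alternatives but 1. With the most abundant transcript in place of the gene sum, 1 gene (TPM1) was higher. The median log2 ratio of the 10 genes, -0.20, was -0.23 with FPKM, -0.050 after centring on the median of genes with at least 10 TPM in both libraries, -0.23 with quantile normalization, -0.16 without the 50 most abundant genes in the denominator and -0.24 with estimated fragments scaled to their totals. With internal exons only, an alternative added after the data were seen, it was -0.24, and SRF was at -0.67. Total actin, -0.45, was -0.48 with FPKM, -0.30 after that centring and -0.41 without the 50 most abundant genes. Of the 10 genes, 9 were below 0 with quantile normalization and without the 50 most abundant genes, 7 with the most abundant transcript and 4 with 6 reference genes. The counts of all genes past 2-fold, 865 higher and 994 lower, were 439 and 409 with a pseudocount of 5, 1346 and 520 with reference genes, 1853 and 3030 at 1.5-fold and 318 and 154 at 3-fold. Depth limits the genes of low level most, and no interval covers the difference between cultures.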
